A study of Mus musculus with 4 samples.

Results

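The genes described here encode the glycoproteins, proteoglycans and crosslinking enzymes that cells lay down around collagen: fibronectin, tenascins and thrombospondins, small and large proteoglycans, the proteins of elastic fibres and basement membranes, and the lysyl oxidases. They were chosen by name, with earlier results of these data known, as 40 genes of the 52636 rows in the count table. Each of the 40 symbols had a single row, and all 40 passed the filter on low counts. C2C12 is an established mouse line of myoblasts, which can withdraw from the cell cycle and fuse into myotubes. RNA came from C2C12 cells kept for up to 8 days in adipogenic medium, either alone (control, 2 libraries) or with 50 µM sesaminol (SML), a lignan of sesame seed (2 libraries). Both groups were thus in adipogenic medium, and no library from growth medium or ordinary muscle differentiation medium was analysed here. Whether replicate libraries stem from separate cultures is not stated, so the p-values cover the variation among these 4 libraries, and that variation may be technical.

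The extracellular matrix is a mixed polymer. Fibronectin and the fibrillins assemble into fibres at the cell surface, and collagen and elastin are laid on them. Small leucine-rich proteoglycans sit on collagen fibrils and affect their thickness, and lysyl oxidases oxidise lysines of collagen and elastin so that covalent crosslinks can form. Matricellular proteins such as tenascin-C, the thrombospondins and SPARC contribute little to the strength of the matrix but change how cells adhere to it. In muscle, myoblasts and fibroblasts both secrete matrix, and the basement membrane around each fibre contains perlecan and the nidogens.

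Library totals ran from 10283135 to 24362899 counts. Levels are given as CPM, the count scaled to the library's effective size. A library with 0 counts of a gene allows up to 3, which corresponded to 0.112 to 0.298 CPM, for counting error only. Sesaminol replicate 2 had the largest total and the smallest share of mitochondrial counts (1.44%, against 2.95% to 3.36% in the other 3 libraries). Muscle markers were present in all 4 libraries: Myod1 ran from 138.9 to 363.6 CPM and Des from 1582 to 3232 CPM. Summed over 10 muscle markers the level was 14066 and 13973 CPM in the controls and 8123 and 6119 CPM with sesaminol. Of those 10 markers 5 fell, 0 rose and the other 5 did not pass, and their part in the matrix results was not tested. The adipocyte gene Adipoq stood at 0.373 to 0.876 CPM and the fibroblast gene Tcf21 had 0 counts in every library. Of the 6 fibroblast markers, 1 fell (Col1a1), 3 did not pass and 2 were not tested. Their sum was 7691 and 8907 CPM in the controls and 4736 and 4499 CPM with sesaminol. It came nearly all from the collagen genes Col3a1 and Col1a1, both also among the assembly partners below. Pdgfra had 12.4 and 15.6 CPM in the controls and 8.84 and 17.0 CPM with sesaminol, so its groups overlapped. Pi16 lay lower in both sesaminol libraries and did not pass. The tendon markers summed to 515 and 428 CPM in the controls and 272.2 and 180.3 CPM with sesaminol, nearly all from Scx, which fell. The cartilage markers summed to 85.7 and 92.5 CPM, then 157.1 and 112.5 CPM, nearly all from Sox9, which did not pass. Sums of other markers ran from 3.95 to 8.94 CPM for adipocytes, 3.08 to 5.22 CPM for endothelium and 14.02 to 19.8 CPM for macrophages. These are bulk samples, so fewer cells of a type and less RNA per cell cannot be told apart.

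The matrix genes leaned downward with sesaminol. Of the 40, 10 fell and 1 rose at an adjusted p under 0.05 (edgeR quasi-likelihood test, Benjamini-Hochberg over 18998 genes). Over all genes tested, 3.24% fell and 2.72% rose. Of the 28 members that reached 20 CPM in either group, 8 fell and 0 rose, while 4.72% of the 9170 genes at that level fell and 4.87% rose. The genes that fell were Aspn, Tnc, Dpt, Thbs2, Loxl1, Nid2, Fmod, Emilin1, Fbn1 and Mfap4, and the gene that rose was Tnxb. The median log2 fold change (sesaminol against control) was -0.38 over the members and 0.02 over all genes tested. Without sesaminol replicate 1 the members' median was -0.64, and without sesaminol replicate 2 it was -0.19. Both sesaminol libraries lay below both controls for 19 members and above them for 10, and the groups overlapped for 11. Over all genes tested 22.8% lay apart in the lower direction and 24.2% in the higher. Without control replicate 1 the count that fell was 6, and without control replicate 2 it was 4. Without sesaminol replicate 1 or 2 more members were called in both directions. Over all genes tested, more were likewise called without a sesaminol library and fewer without a control. Each of those fits leaves a lone library in a group, which is assumed to vary like the other group.

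**Figure D1:**
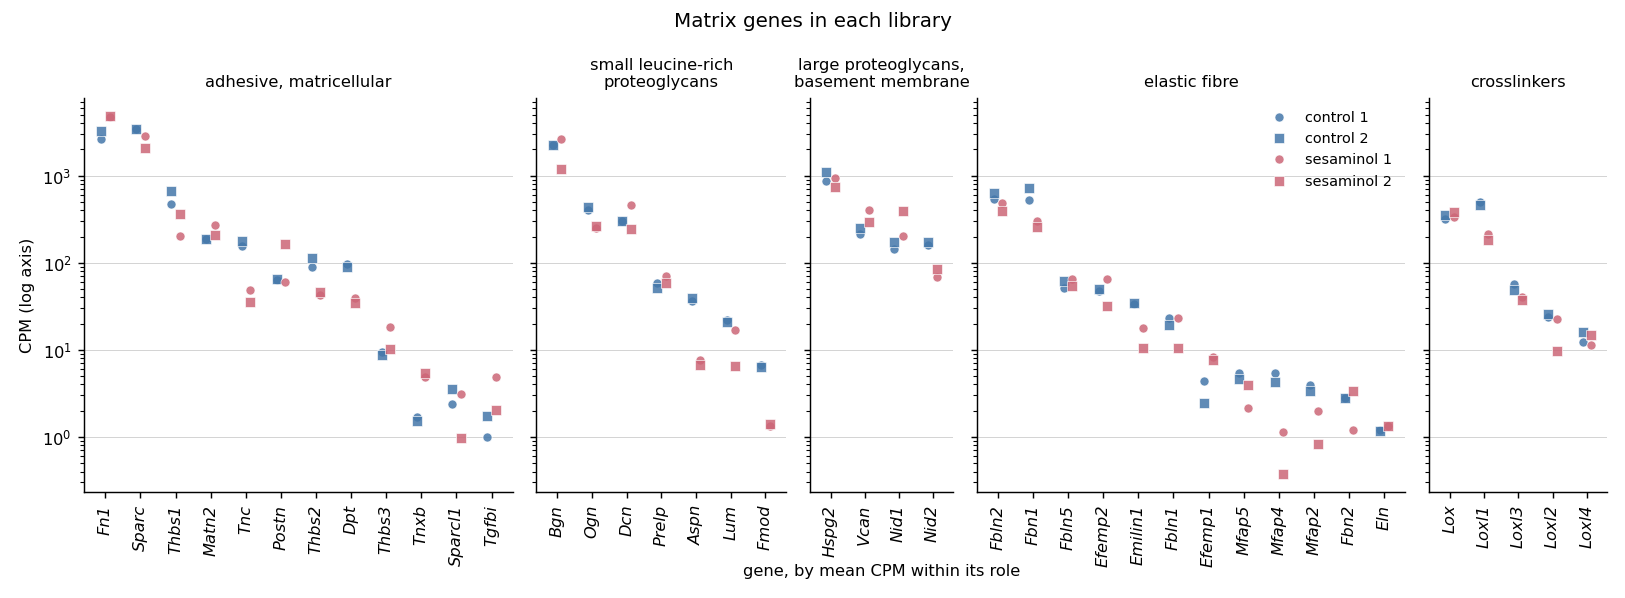
CPM of each of the 40 matrix genes (log axis) in each library, grouped by role; blue points are controls, red points sesaminol libraries, circles replicate 1 and squares replicate 2. The genes run from 0.373 CPM (Mfap4 in sesaminol replicate 2) to 4855 CPM (Fn1 in sesaminol replicate 2), and the sesaminol points of Aspn, Tnc, Dpt, Fbn1 and Loxl1 lie below both controls.

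Levels between genes were compared as CPM per kb of exon (GENCODE M21), averaged over the 2 group means. Exon length is a fit divisor only if reads were counted over exons alone, which was not tested. Gm32569, for example, shares 0 exon bases with Dpt but had 82.2% as many counts. The order of genes and their shares below hold on this scale only. Sparc stood at 778, Bgn at 340.0 and Fn1 at 330.3 CPM per kb, followed by Ogn (133), Loxl1 (102), Fbln2 (80.6) and Lox (73.2). Bgn and Fn1 cannot be ordered: Bgn was the higher in both controls (370 and 368 against 224 and 281 CPM per kb) and in sesaminol replicate 1 (427 against 401), and Fn1 in sesaminol replicate 2 alone (415 against 195). At the other end, Eln, the elastin gene itself, stood at 0.156 CPM per kb and Fbn2 at 0.191 CPM per kb. Sparc, Bgn and Fn1 together made up most of the summed level per kb. The share of Fn1 in that sum was 8.96% and 10.7% in the controls and 17.1% and 22.1% with sesaminol, and that of Sparc was 36.5% and 34.1%, then 32.0% and 29.2%. Summed over the 40 genes the level was 13781 and 15215 CPM in the controls and 14846 and 12484 CPM with sesaminol, so the groups overlapped. Without Fn1, Sparc and Bgn the sums were 5446 and 6279 CPM in the controls and 4721 and 4364 CPM with sesaminol, and did not overlap. These genes are the highest per kb in the same data, and Fn1 lay higher in both sesaminol libraries. The separation of the sums thus depends on which genes are left out.

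The 300-base windows around the starts of Aspn, Tnc and Dpt, the genes that fell with the smallest adjusted p, are shown with the motifs found in them. The sequences are from RefSeq (GRCm38.p6) and run from 250 bases before to 50 bases after the start, 5′ to 3′ on the strand of the gene. Capitals mark the motifs searched for on both strands: the TATA box (TATAAA), Sp1 (GGGCGG), the E-box (CANNTG), AP-1 (TGANTCA), TEAD (GGAATG), the NRF2 element (TGACNNNGC) and the CArG box. Motifs may overlap or abut, as E-box and TATA box letters do in Dpt.
Aspn, chr13:49544193-49544492, plus strand: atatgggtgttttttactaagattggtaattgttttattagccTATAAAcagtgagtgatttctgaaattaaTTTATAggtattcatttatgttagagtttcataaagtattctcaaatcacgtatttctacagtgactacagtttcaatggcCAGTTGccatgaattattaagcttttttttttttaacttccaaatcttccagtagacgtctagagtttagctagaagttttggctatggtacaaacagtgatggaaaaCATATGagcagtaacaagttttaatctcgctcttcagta
Tnc, chr4:64046887-64047186, minus strand: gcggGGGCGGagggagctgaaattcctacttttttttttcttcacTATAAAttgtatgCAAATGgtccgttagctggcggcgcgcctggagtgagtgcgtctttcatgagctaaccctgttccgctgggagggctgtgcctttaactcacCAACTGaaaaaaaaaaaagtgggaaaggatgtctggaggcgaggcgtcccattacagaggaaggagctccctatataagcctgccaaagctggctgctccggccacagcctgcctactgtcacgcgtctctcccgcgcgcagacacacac
Dpt, chr1:164796413-164796712, plus strand: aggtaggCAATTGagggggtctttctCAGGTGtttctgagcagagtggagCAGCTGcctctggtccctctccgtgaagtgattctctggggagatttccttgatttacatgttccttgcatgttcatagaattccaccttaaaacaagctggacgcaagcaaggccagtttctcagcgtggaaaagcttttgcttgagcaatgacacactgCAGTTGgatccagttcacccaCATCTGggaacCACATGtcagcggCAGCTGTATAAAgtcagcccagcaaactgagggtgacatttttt
In Dpt, 7 matches to the E-box lay in the window, the nearest before the start at bases -7 to -2. The window of Aspn held 2 such matches and that of Tnc 2. RefSeq windows were found for 25 of the 40 genes (32 windows, since some genes have several starts), including 7 of the 10 that fell (8 windows). An E-box was present in 8 of those 8 windows, in 21 of the 32 member windows and in 72.3% of all 32851 windows. A match to the TATA box was present in 5 of the 8, in 7 of the 32 and in 13.6% of all windows. Sp1 was present in 3 of the 8, in 18 of the 32 and in 35.7%. In those 5 windows the TATA box letters began at bases -207 and -178 in Aspn and -126 in Thbs2. In Dpt they lay after the start, at bases 13 to 18. The 2 Tnc windows overlap and hold the same match, at -205 in one and -126 in the other. AP-1, TEAD, the NRF2 element and the CArG box were in 0 of the 8 windows, 2, 3, 2 and 0 of the 32, and 7.81%, 14.7%, 12.4% and 1.63% of all windows. A match is a run of letters and not evidence of a bound site.

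Among the 12 adhesive and matricellular genes, 3 fell, 1 rose and the other 8 did not pass. Tnc encodes tenascin-C, an oligomeric glycoprotein that lowers cell adhesion to fibronectin. It stood at 156.8 and 176.4 CPM in control replicates 1 and 2 and at 48.7 and 35.3 CPM in sesaminol replicates 1 and 2. The groups lay far apart, and Tnc was 3.98-fold lower with sesaminol (-1.99 ± 0.20 on the log2 scale, SE; edgeR adjusted p = 0.0014). Tnc (ENSMUSG00000028364) lies on chromosome 4 from 63959785 to 64047015 (GRCm38). Its antisense neighbour 8030451A03Rik had 64.3% as many counts, overlaps it over 176 exon bases and also fell (log2 fold change -1.87, edgeR adjusted p = 0.00193). The labels do not give the strand setting of the counting, so how far these 2 genes share reads was not tested.

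Dpt encodes dermatopontin, a small matrix protein that binds decorin. It had 95.9 and 89.8 CPM in the controls and 38.9 and 34.2 CPM with sesaminol. That is a change of -1.35 ± 0.16 on the log2 scale (edgeR adjusted p = 0.00239), with replicates close together in both groups. Gm32569, on the opposite strand, spans part of Dpt with 0 exon bases in common. It had 82.2% as many counts as Dpt and also fell (-1.38 on the log2 scale, edgeR adjusted p = 0.00254). Thbs2, encoding thrombospondin 2, an inhibitor of blood vessel growth that also affects collagen fibrils, had 88.8 and 112.9 CPM in the controls and 42.5 and 45.7 CPM with sesaminol. Its log2 fold change was -1.19 ± 0.18 (edgeR adjusted p = 0.00615), and no overlapping gene held counts beside it. Without control replicate 2 it missed the threshold (edgeR adjusted p = 0.0577).

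Thbs1, encoding thrombospondin 1, which can activate latent TGF-beta, had 467 and 659 CPM in the controls and 204.4 and 361 CPM with sesaminol. The groups did not overlap, but replicates differed within each, and the gene did not pass (log2 fold change -0.99 ± 0.30, edgeR adjusted p = 0.0978). DESeq2 called it (adjusted p = 0.00401), but limma-voom (adjusted p = 0.0806) and edgeR with RLE scaling (adjusted p = 0.102) did not. Thbs3, a relative expressed in cartilage, stood at 9.53 and 8.62 CPM in the controls and 18.1 and 10.2 CPM with sesaminol (edgeR adjusted p = 0.326). Its overlapping neighbour Mtx1 had 207% as many counts.

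Tnxb encodes tenascin-X, whose loss in humans causes a form of Ehlers-Danlos syndrome. It rose from 1.69 and 1.53 CPM to 4.82 and 5.41 CPM (17 and 21 counts, then 72 and 145 counts). The change of 1.67 ± 0.41 on the log2 scale had an edgeR adjusted p of 0.04999, at the edge of the threshold. Under RLE scaling the adjusted p was 0.0515, with limma-voom 0.0742, and without control replicate 1 or 2 it was 0.326 and 0.437. Upper quartile scaling, library size alone and thinned counts also missed it, while DESeq2, the fit without a filter and those without either sesaminol library kept it.

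Fn1 encodes fibronectin, the adhesive glycoprotein that many other matrix proteins assemble on. It had 2619 and 3283 CPM in the controls and 4683 and 4855 CPM with sesaminol. Both sesaminol libraries were above both controls, yet the gene did not pass (log2 fold change 0.69 ± 0.30, edgeR adjusted p = 0.261). DESeq2 called it at an adjusted p of 0.0119, and limma-voom did not (adjusted p = 0.146). With a library left out, its log2 fold change ran from 0.53 without control replicate 1 to 0.86 without control replicate 2. edgeR called it without either sesaminol library, where the lone library is assumed to vary like the controls, but not without either control. Sparc, encoding a calcium- and collagen-binding matricellular protein, had 3461 and 3406 CPM in the controls and 2836 and 2078 CPM with sesaminol (edgeR adjusted p = 0.461). The controls differed little and the sesaminol libraries more, with sesaminol replicate 2 the lower.

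Postn, encoding periostin, an adhesion protein of healing tissue, had 63.9 and 65.3 CPM in the controls and 59.99 and 162.8 CPM with sesaminol. Sesaminol replicate 1 was at the level of the controls and only replicate 2 was high (edgeR adjusted p = 0.313), and without replicate 2 the log2 fold change turned from 0.79 to -0.10. Matn2, encoding matrilin-2, an adaptor between matrix filaments, had 188.4 and 189.0 CPM in the controls and 271.4 and 210.9 CPM with sesaminol (edgeR adjusted p = 0.392). The remaining genes of this role were at low level. Tgfbi, a TGF-beta-induced relative of periostin, ran from 0.993 to 4.82 CPM and Sparcl1, a relative of SPARC, from 0.969 to 3.51 CPM, and neither passed.

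**Figure D2:**
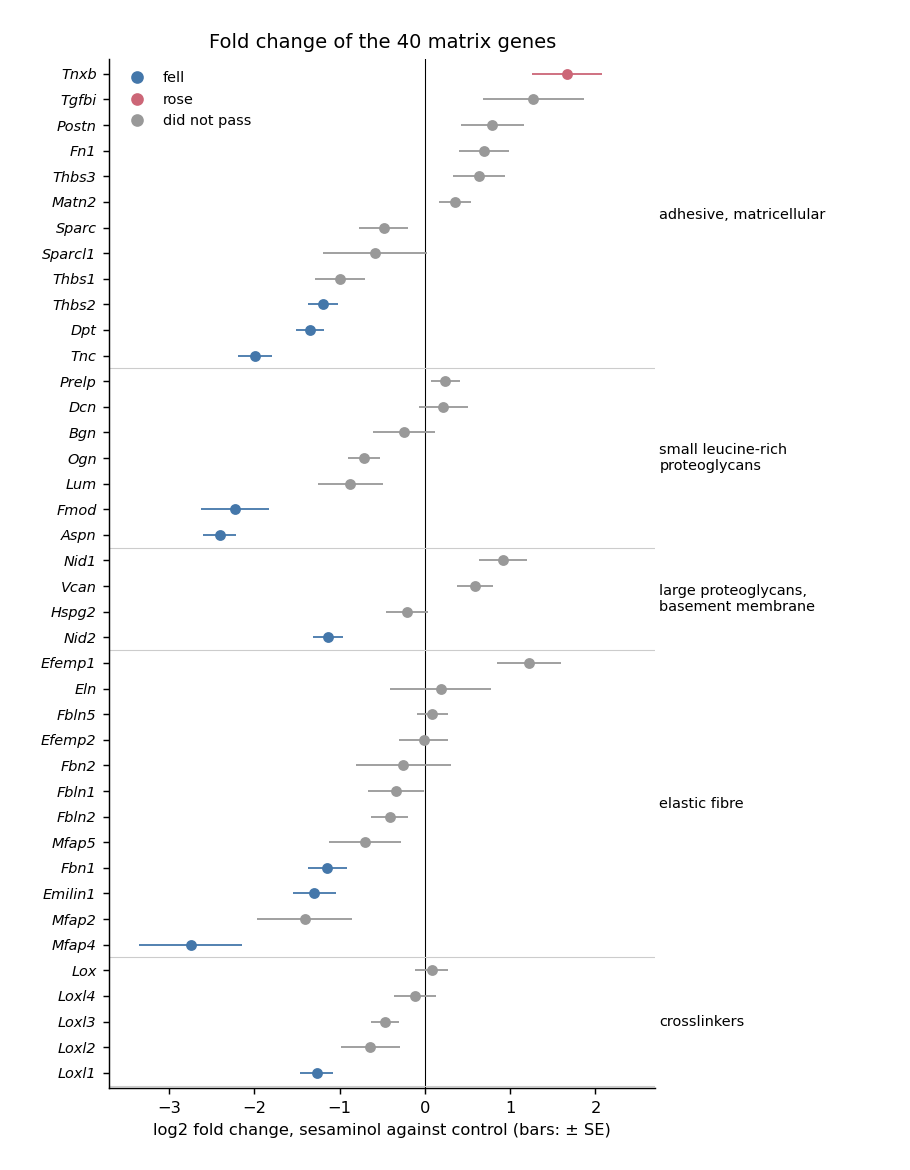
Log2 fold change of sesaminol against control for each of the 40 matrix genes (x axis; bars ± SE, 2 libraries per group), sorted within roles; blue genes fell, the red gene rose and grey genes did not pass. The 10 that fell run from -1.13 (Nid2) to -2.74 (Mfap4), and members of the same role lie on both sides of 0.

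Of the 7 small leucine-rich proteoglycans, 2 fell and the other 5 did not pass. These proteins share a curved leucine-rich repeat domain that binds collagen. Aspn encodes asporin, which binds collagen and TGF-beta. It stood at 36.7 and 38.9 CPM in the controls and 7.70 and 6.64 CPM with sesaminol. It was 5.30-fold lower (log2 fold change -2.41 ± 0.19, edgeR adjusted p = 0.000686). Its adjusted p was the smallest of the 40 genes. Fmod, encoding fibromodulin, a regulator of collagen fibril growth in tendon, had 6.65 and 6.28 CPM in the controls and 1.34 and 1.42 CPM with sesaminol. It was 4.66-fold lower (log2 fold change -2.22 ± 0.40, edgeR adjusted p = 0.0133), on 20 and 38 counts in the sesaminol libraries. Without control replicate 1 or 2 its adjusted p was 0.0969 and 0.095, at nearly the same fold.

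Ogn, encoding osteoglycin (mimecan), was the most abundant of this role after Bgn on the per-kb scale, at 407 and 438 CPM in the controls and 249.8 and 266.5 CPM with sesaminol. The groups were apart and the replicates close, but the change of -0.71 ± 0.18 on the log2 scale missed the threshold (edgeR adjusted p = 0.06). DESeq2, limma-voom, upper quartile scaling and the fit without a filter called it, with adjusted p of 0.00401, 0.0476, 0.037 and 0.0255. In edgeR, RLE scaling, library size alone and thinned counts missed it, with adjusted p of 0.0676, 0.0609 and 0.0586. Lum, encoding lumican, had 21.8 and 20.6 CPM in the controls and 17.0 and 6.49 CPM with sesaminol (edgeR adjusted p = 0.27). Its low value came from sesaminol replicate 2.

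Bgn and Dcn encode biglycan and decorin, close relatives with glycosaminoglycan chains. Bgn had 2254 and 2247 CPM in the controls and 2605 and 1188 CPM with sesaminol. Dcn had 305.1 and 303.1 CPM in the controls and 465 and 241 CPM with sesaminol. In both genes the controls were nearly equal and the 2 sesaminol libraries lay on either side of them, so no direction can be given (edgeR adjusted p = 0.825 and 0.798). Prelp, encoding an arginine- and proline-rich relative that binds basement membrane perlecan, had 58.2 and 51.4 CPM in the controls and 70.6 and 58.8 CPM with sesaminol (edgeR adjusted p = 0.563). The overlapping Gm15851 had 83.8% as many counts as Prelp.

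Genes of this family lie in clusters, and the neighbours did not all move alike. On chromosome 13, Ecm2, Aspn, Omd and Ogn follow each other within 119.7 kb (49504810 to 49624501, GRCm38), all on the plus strand. Aspn and its neighbour Omd, encoding osteomodulin, each fell more than 5-fold by estimate, Omd from 9.14 and 9.64 CPM to 1.21 and 2.24 CPM (log2 fold change -2.41 ± 0.40, edgeR adjusted p = 0.00877). Ecm2 had a log2 fold change of -1.62 ± 0.46 and did not pass (edgeR adjusted p = 0.0814). All 4 estimates of this cluster were below 0. The gene Cenpp spans the cluster on the opposite strand, and its 4827, 7036, 4162 and 7952 counts were close to the 4608, 6733, 3892 and 7419 counts summed over the 4 genes inside it. The count of Cenpp also fell (log2 fold change -0.79, edgeR adjusted p = 0.044). With counts this close, that fall cannot be read as a change separate from those of the genes inside it. Of its exon bases, 7 overlap Aspn. How far Cenpp and these genes share reads was not tested.

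On chromosome 1, Fmod fell while Prelp, whose end lies before the start of Fmod in the same 151.1 kb, had an estimate above 0. On chromosome 10, Dcn and Lum had estimates of 0.22 ± 0.29 and -0.87 ± 0.38 on the log2 scale and neither passed. Their neighbours Kera and Epyc, genes known from cornea and cartilage, had too few counts to be tested, as did Optc beside Prelp.

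**Figure D3:**
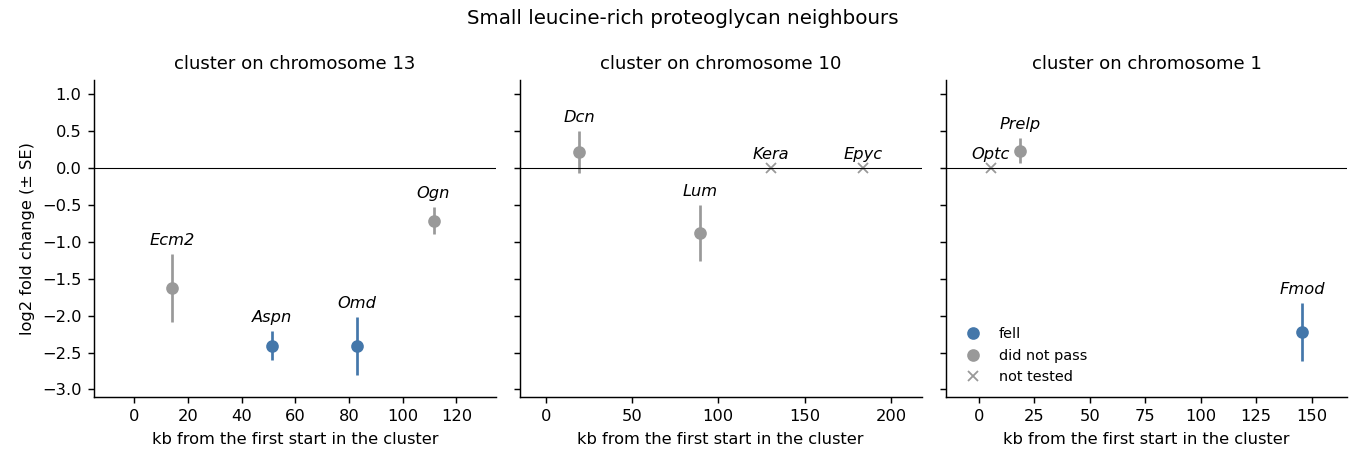
Log2 fold change (y axis, ± SE, 2 libraries per group) of small leucine-rich proteoglycan genes against the distance of their midpoints from the first gene start of the cluster in kb (x axis). Blue genes fell, grey genes did not pass, and crosses placed at 0 are genes that were not tested. The 4 genes of chromosome 13 lie below 0, from -0.71 (Ogn) to -2.41 (Aspn, Omd), whereas Fmod and Prelp on chromosome 1 lie apart at -2.22 and 0.24.

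Of the 4 genes of large proteoglycans and basement membrane, Nid2 fell and the other 3 did not pass. Nid1 and Nid2 encode nidogens, which link the laminin and collagen IV networks of basement membranes. Nid2 had 160.9 and 172.5 CPM in the controls and 68.2 and 84.0 CPM with sesaminol (log2 fold change -1.13 ± 0.18, edgeR adjusted p = 0.00684). Nid1 had 144.1 and 172.1 CPM in the controls and 205.0 and 392 CPM with sesaminol, and did not pass (log2 fold change 0.92 ± 0.29, edgeR adjusted p = 0.115). DESeq2 called its rise (adjusted p = 0.0162), but limma-voom (adjusted p = 0.152) and edgeR with RLE scaling (adjusted p = 0.128) did not. The log2 fold change of Nid1 was 1.27 without sesaminol replicate 1 and 0.38 without sesaminol replicate 2. The neighbour 2700060E02Rik had 58.3% as many counts as Nid2 and overlaps it over 437 exon bases, with a log2 fold change of -0.13 that did not pass. Per kb of exon the ratio of Nid2 to Nid1 was 1.498 and 1.35 in the controls and 0.447 and 0.288 with sesaminol. On this scale the more abundant nidogen differed between the groups.

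Hspg2 encodes perlecan, the heparan sulfate proteoglycan of basement membranes. It had 857 and 1089 CPM in the controls and 941 and 739 CPM with sesaminol, and the groups overlapped (edgeR adjusted p = 0.761). Vcan, encoding versican, a large chondroitin sulfate proteoglycan that binds hyaluronan, had 212.7 and 248.0 CPM in the controls and 398 and 294.5 CPM with sesaminol. Both sesaminol libraries were higher, but the gene did not pass (log2 fold change 0.59 ± 0.21, edgeR adjusted p = 0.174).

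Among the 12 genes of elastic fibres, Fbn1, Emilin1 and Mfap4 fell and the other 9 did not pass. Fbn1 encodes fibrillin-1, the backbone of microfibrils, which is mutated in Marfan syndrome in humans. It had 531 and 712 CPM in the controls and 303.7 and 260.0 CPM with sesaminol (log2 fold change -1.14 ± 0.22, edgeR adjusted p = 0.019). The controls differed by more than the sesaminol libraries did, and without control replicate 1 or 2 the adjusted p was 0.0672 and 0.377. Emilin1, encoding a glycoprotein found where elastin meets microfibrils, had 33.3 and 34.9 CPM in the controls and 17.7 and 10.4 CPM with sesaminol. Its log2 fold change of -1.30 ± 0.25 (edgeR adjusted p = 0.0187) passed with each of the 4 libraries left out.

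Mfap4, a microfibril-associated glycoprotein gene, had 5.36 and 4.31 CPM in the controls and 1.14 and 0.373 CPM with sesaminol, on 54, 59, 17 and 10 counts. It was 6.69-fold lower (log2 fold change -2.74 ± 0.60, edgeR adjusted p = 0.0313), but 13.04-fold lower without sesaminol replicate 1 and 4.18-fold lower without sesaminol replicate 2. Without control replicate 1 or 2 the adjusted p was 0.162 and 0.0833. Mapk7, which overlaps it over 89 exon bases, had 2134% as many counts, with a log2 fold change of 0.37 that did not pass. Mfap2 and Mfap5, encoding the microfibril-associated glycoproteins MAGP1 and MAGP2, ran from 0.82 to 3.97 CPM and from 2.14 to 5.36 CPM. Both lay lower with sesaminol in both libraries and did not pass (edgeR adjusted p = 0.219 and 0.467).

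The fibulins, short glycoproteins that join elastin, microfibrils and basement membranes, did not pass as single genes. Fbln2 had 543 and 630 CPM in the controls and 489 and 391 CPM with sesaminol (edgeR adjusted p = 0.374). Fbln5, which tethers elastin to cells, had 50.8 and 62.4 CPM in the controls and 65.9 and 54.5 CPM with sesaminol, and the groups overlapped. Fbln1 had 23.0 and 19.1 CPM in the controls and 23.0 and 10.6 CPM with sesaminol, with sesaminol replicate 2 alone the lower. Efemp2 (fibulin-4), which brings lysyl oxidase to elastin, had 47.9 and 49.4 CPM in the controls and 65.02 and 31.9 CPM with sesaminol, on either side of the controls, beside the overlapping Mus81 with 44.7% as many counts. Efemp1 (fibulin-3) had 4.37 and 2.48 CPM in the controls and 8.24 and 7.61 CPM with sesaminol, apart from the controls but not past the threshold (log2 fold change 1.22 ± 0.37, edgeR adjusted p = 0.106). Eln had 12 to 36 counts per library, with the overlapping Gm30003 at 132% of them, and Fbn2 had 18 to 90, and neither passed.

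Of the 5 lysyl oxidases, Loxl1 fell and the other 4 did not pass. Loxl1 is the family member needed for elastic fibre renewal in mice. It had 492 and 456 CPM in the controls and 212.4 and 181.1 CPM with sesaminol, 2.41-fold lower (log2 fold change -1.27 ± 0.19, edgeR adjusted p = 0.00644). The groups lay well apart, although without control replicate 1 or 2 the adjusted p was 0.0703 and 0.0526. Lox, the founding member, had 321.6 and 357.8 CPM in the controls and 333.3 and 386 CPM with sesaminol, and the groups overlapped (log2 fold change 0.08 ± 0.19, edgeR adjusted p = 0.907). Per kb of exon the ratio of Loxl1 to Lox was 2.22 and 1.85 in the controls and 0.924 and 0.68 with sesaminol. On this scale Loxl1 was the higher in controls and Lox with sesaminol.

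Loxl2, Loxl3 and Loxl4 carry scavenger receptor domains and act on collagens. Loxl3 had 57.6 and 49.2 CPM in the controls and 39.97 and 37.4 CPM with sesaminol (log2 fold change -0.47 ± 0.17, edgeR adjusted p = 0.173), beside the overlapping Htra2 with 225% as many counts. Loxl2 had 24.0 and 25.9 CPM in the controls and 22.8 and 9.69 CPM with sesaminol, with sesaminol replicate 2 the lower (edgeR adjusted p = 0.392). Loxl4 ran from 11.4 to 16.1 CPM over all libraries and the groups overlapped.

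**Figure D4:**
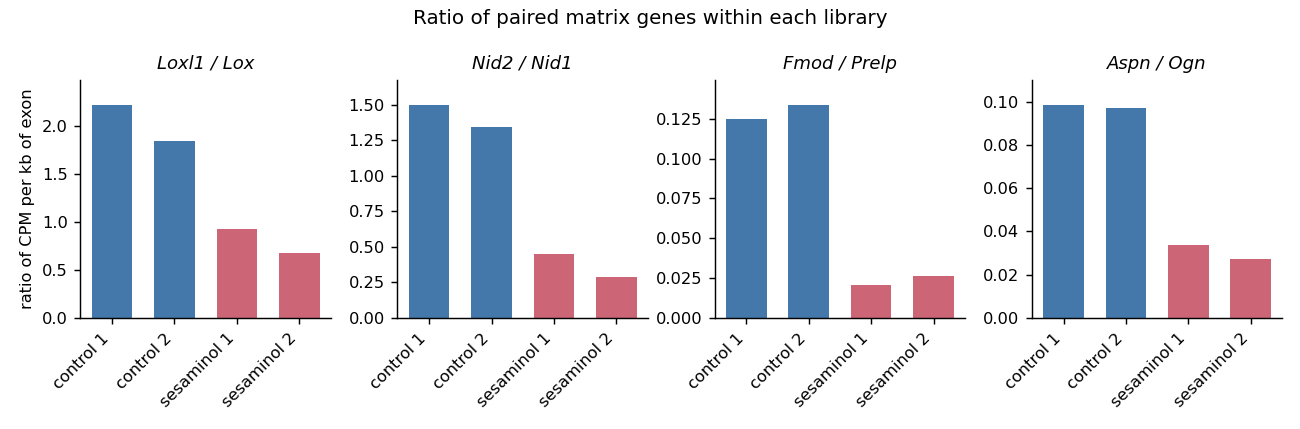
Ratio of CPM per kb of exon for pairs of related genes within each library (y axis from 0; blue bars controls, red bars sesaminol; 1 bar per library). The pairs were chosen after the values were seen, so no test is given. In each pair both sesaminol libraries lie below both controls, for Loxl1 to Lox at 0.924 and 0.68 against 2.22 and 1.85.

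Ratios within a library do not depend on how libraries are scaled. Fmod to Prelp stood at 0.125 and 0.134 in the controls and 0.0207 and 0.0264 with sesaminol, and Aspn to Ogn at 0.0983 and 0.0968 in the controls and 0.0336 and 0.0271 with sesaminol. With 2 libraries against 2, an exact permutation test cannot go below a two-sided p of 0.333, so these ratios are given as descriptions.

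Of 41 family relatives, 15 had too few counts to be tested, 1 fell (Omd), 1 rose and 24 did not pass, with a median log2 fold change of 0.07. Over all genes tested 3.24% fell and 2.72% rose, so these counts are near the background. The one that rose was Emilin2, encoding a relative of EMILIN1, at 77.9 and 77.3 CPM in the controls and 128.5 and 120.0 CPM with sesaminol (1.60-fold, edgeR adjusted p = 0.0396), with Gm26561 at 33.9% of its counts. The call of Emilin2 was lost without control replicate 1 and without control replicate 2.

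The partners that matrix assembly needs leaned downward: of 29 tested, 10 fell, 1 rose and 18 did not pass, with a median log2 fold change of -0.52. Over all genes tested 3.24% fell and 2.72% rose. Like the members, these partners were chosen with earlier results of these data known. Col5a3, a chain of collagen V, which regulates fibril diameter, fell 4.05-fold from 268.3 and 260.3 CPM to 73.0 and 57.8 CPM (edgeR adjusted p = 0.000985). Col1a1, the main chain of collagen I, fell 2.32-fold (edgeR adjusted p = 0.0104), P4ha3, a prolyl hydroxylase subunit, 2.48-fold (0.0133), and Col6a2, a chain of the microfibrillar collagen VI, 2.747-fold (0.0226). The gene that rose was another prolyl hydroxylase subunit, P4ha2, from 82.6 and 68.4 CPM to 135.0 and 123.2 CPM (edgeR adjusted p = 0.033). Bmp1, the protease that matures procollagens and lysyl oxidase, was named after its values were seen; it fell from 229.0 and 226.4 CPM to 143.4 and 92.7 CPM (edgeR adjusted p = 0.04). Without control replicate 1 or 2, Col5a3 alone of these partners fell in each case and 0 rose, and without sesaminol replicate 1 or 2, 18 and 13 fell and 2 and 5 rose.

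Of 24 matrix receptors tested, 3 fell, 3 rose and 18 did not pass, with a median log2 fold change of 0.10, where 3.24% of all genes fell and 2.72% rose. Without either control, Itgb6 alone fell and Itgb3 alone rose, and the calls of the other receptors were lost. Itgb6, an integrin chain that pairs with alpha v to bind latent TGF-beta and fibronectin, fell 3.50-fold from 21.1 and 25.5 CPM to 5.49 and 7.72 CPM (edgeR adjusted p = 0.00421). Itgb3, a chain of the vitronectin and fibronectin receptor, rose 5.48-fold from 26.0 and 32.9 CPM to 93.5 and 229.3 CPM (edgeR adjusted p = 0.00632). Its sesaminol libraries differed from each other by more than 2-fold. Sdc4, encoding syndecan-4, a co-receptor for fibronectin, rose 1.80-fold (edgeR adjusted p = 0.0196), and Ddr1, a collagen-binding receptor kinase, fell 1.68-fold (edgeR adjusted p = 0.0308). Itga5 and Itgb1, the chains of the classical fibronectin receptor, were added after their values were seen. Their log2 estimates of 0.22 ± 0.18 and -0.38 ± 0.23 missed the threshold, with edgeR adjusted p of 0.619 and 0.46.

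How firmly a member was called depended on which library was left out. Aspn, Tnc, Dpt and Emilin1 fell in all 4 fits that leave out a library, and Loxl1, Fmod, Fbn1 and Mfap4 missed the threshold without either control. Nid2 and Thbs2 missed it without control replicate 2 (edgeR adjusted p = 0.0567 and 0.0577). All 10 kept a log2 fold change below 0 in each of these fits. Of the 10, Aspn, Tnc, Dpt, Nid2 and Mfap4 were marked as sharing reads with an overlapping gene at the 20% limit given below. Thbs2, Loxl1, Fmod, Emilin1 and Fbn1 were not marked.

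**Figure D5:**
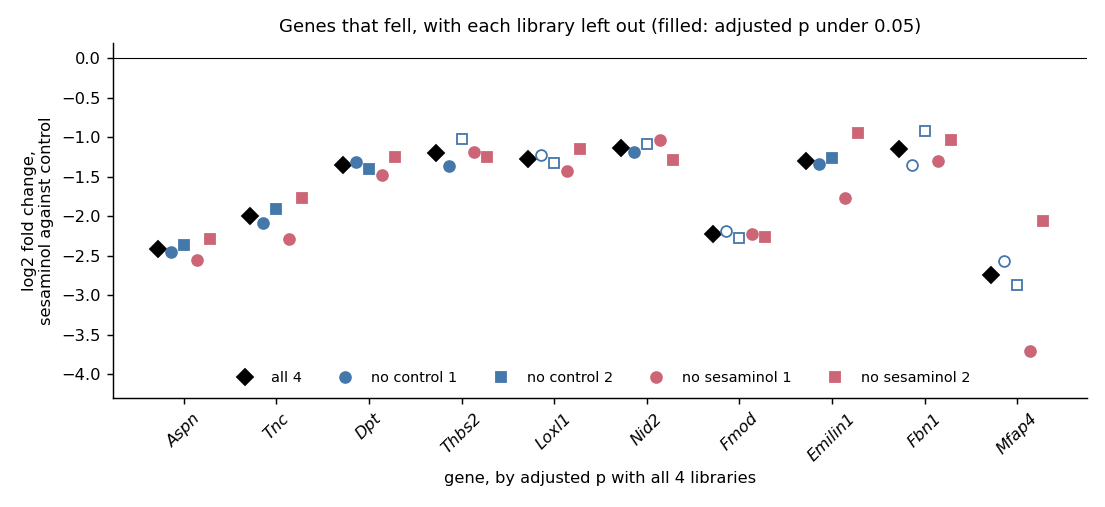
Log2 fold change of sesaminol against control (y axis) for the 10 genes that fell, with all 4 libraries (black) and with each library left out (blue for a control, red for a sesaminol library); filled symbols have an edgeR adjusted p under 0.05. Every point lies below 0, and Mfap4 has the widest range, from -2.06 to -3.71.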

How the data were processed

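Libraries were made from poly(A)-selected RNA with an NEBNext kit for Illumina, per the labels' protocols. The authors deposited 1 table of raw counts, whole numbers per gene with no normalization visible in the values. Software named in the submitters' processing notes was fastp, featureCounts, Picard, FastQC, MultiQC and edgeR, with the GRCm38 build. No source used here gives the aligner, strand setting or annotation release. From 75.8% to 79.6% of values between 1 and 12 were even, and whether both reads of a pair were counted is not stated, so counting limits may be too low. Low counts were removed with filterByExpr (at least 10 counts, total at least 15), leaving 18998 genes. These were scaled by TMM and tested with edgeR 4.0.16 (R 4.3.3, glmQLFit and glmQLFTest, two-sided), with Benjamini-Hochberg adjustment over all genes. The SE was taken as the size of the log2 fold change over the root of the F statistic. CPM uses TMM effective library sizes. Gene positions and exon lengths are from GENCODE M21 (GRCm38), and a gene was marked as sharing reads where an overlapping gene held at least 20% of its count. For an overlapping gene that spans the whole gene, only its count beyond that of all genes inside it was used. By this rule Aspn was marked and Ogn was not, although Cenpp spans both. Members and lists were chosen with earlier results of these data known. Members that passed, or reached 20 CPM, are given by library; in each other list, up to 4 genes with the smallest adjusted p are named. Alternatives were RLE and upper quartile scaling, library size alone, no filter, DESeq2 1.42.0, limma-voom (limma 3.58.1), a replicate block, thinned counts and leaving out each library. The fit was tested on simulated counts with the means and sizes of these libraries. Their spread between replicates was set and not estimated from these data. Of the planted changes tested, it recovered 44% at 2-fold and 93.8% at 4-fold.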

Additional observations from a re-analysis of the deposited data

How the results depend on the processing

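The count of matrix genes that fell stayed between 10 and 13 with RLE, upper quartile or no scaling factor, no filter, DESeq2, limma-voom, the replicate block and thinned counts. It was 4 to 23 with a library left out, and 5 when genes marked as sharing reads, an alternative chosen after seeing the data, were not counted. The count that rose was 0 with RLE scaling, upper quartile scaling, library size alone, limma-voom and thinned counts, 3 with DESeq2 and the replicate block, 4 with no filter and 0 to 8 with a library left out. Family relatives that fell numbered 2 with upper quartile scaling, library size alone, DESeq2, the replicate block and thinned counts, and 4 with no filter; those that rose numbered 2 with library size alone and the replicate block. With a library left out, 1 to 5 relatives fell and 0 to 3 rose, 1 to 18 assembly partners fell and 0 to 5 rose, and 1 to 8 receptors fell and 1 to 8 rose. Assembly partners that fell numbered 7 with RLE scaling, 9 with library size alone, and 12 with no filter, DESeq2 and the replicate block. Receptors that fell numbered 6 with no filter and 5 with the replicate block. Over all genes 928 rose and 985 fell with no filter, 893 and 982 with the replicate block, and 163 to 1918 and 276 to 2724 with a library left out. The replicate numbers are not said to pair the samples, and same-numbered samples deviated with a correlation of -0.05, so the block is given here only.

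Estimates that changed sign were all of members that did not pass: Loxl4 with thinned counts (0.055), and Efemp2 with library size alone (0.021) and no filter (0.013). With a library left out, log2 fold changes ran from -0.10 to 1.29 for Postn, -1.03 to 0.14 for Fbln1, -1.65 to 0.053 for Sparcl1, -0.38 to 0.62 for Dcn, -0.96 to 0.22 for Bgn, -0.10 to 0.24 for Fbln5, -1.19 to 0.23 for Fbn2, -0.32 to 0.093 for Loxl4, -0.021 to 0.16 for Lox and -0.65 to 0.43 for Efemp2; the cause was not tested. With 2 libraries per group and these depths, a missed threshold does not show that a gene was unaffected.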
